A study of Mus musculus with 30 samples.

Results

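This report follows 9 genes of the retinoid pathway through 10 groups of mouse fibroblasts: the aldehyde dehydrogenases Aldh1a1, Aldh1a7, Aldh1a2 and Aldh1a3, the binding proteins Crabp1 and Crabp2, the receptor Rarb, the hydroxylase Cyp26b1 and the reductase Dhrs3. They are 9 of the 36047 genes to which transcripts in the files could be assigned, and all 9 were found by their GENCODE M21 symbols. They were chosen by their measured levels and changes in these same libraries, above all the change of Aldh1a1 and Aldh1a7 with doxycycline. Their values are therefore given as descriptions, with no p-value. RNA came from NIH3T3-CG cells, a derivative of the mouse embryonic fibroblast line NIH3T3 whose suffix the labels do not explain. There are 30 bulk mRNA libraries, 3 for each of the 10 groups, from a series whose title concerns variability of the Hedgehog response between cells.

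One experiment used cells transduced with Prrx1, to which doxycycline, the inducer of the construct, was given or not. No group received doxycycline without the Prrx1 construct, so effects of the drug and of the factor cannot be told apart. In 3 further experiments, a plasmid carrying a factor or a control plasmid was transfected into the cells. The same 3 control libraries serve Prrx1 and Snai1, another 3 serve Egr1 and Jun, and Srebf2 is compared with 3 of its own. Transduced and transfected cells came from separate experiments, so delivery method and experiment cannot be told apart when levels are set side by side. The labels do not say whether replicates were separate cultures, so their spread may be technical.

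Cells take up retinol, oxidize it reversibly to retinaldehyde, and oxidize retinaldehyde irreversibly to retinoic acid, the step that Aldh1a1, Aldh1a2 and Aldh1a3 catalyse. No enzyme activity was measured here, for Aldh1a7 or any other. Dhrs3 runs the first step backwards, Crabp1 and Crabp2 hold retinoic acid in the cytosol, retinoic acid receptors such as Rarb carry its signal to genes, and Cyp26 enzymes break it down. Rarb, Dhrs3, Crabp2 and Cyp26 genes are themselves known targets of retinoic acid in many cell types. In embryonic mesenchyme this pathway patterns limbs and face, where Prrx1 is also active.

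Library depth, as total estimated counts, ran from 7996355 to 37068611, and the 6 transduced libraries held 7996355 to 17129632. Levels are CPM (counts scaled to the total assigned to genes), which compare a gene between libraries. TPM values, which also divide by transcript length, are used to compare genes with each other. Every delivered factor was higher in all 3 of its libraries than in all 3 controls. For Prrx1 the ranges were 3794 to 4140 CPM with doxycycline against 919.8 to 1116 without, and 14370 to 19080 CPM after transfection against 472 to 636.2 in the controls. The 10 fibroblast markers (Col1a1, Vim and others) summed to between 8034 and 15490 CPM in every library. Epithelial markers (6 genes) summed to 163.4 CPM in Egr1 replicate 3 and to at most 17.75 CPM elsewhere. Neural markers (6 genes) summed to 97.9 CPM in replicate 2 of the controls of Egr1 and Jun, and to at most 31.7 CPM elsewhere. The main changes with Egr1 and Jun that moved when either library was left out are given both ways.

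Aldh1a1 and Aldh1a7 are near copies on mouse chromosome 19 (GRCm38), and their sequences decide how well reads can be told apart. Aldh1a1 lies at 20492715 to 20643465 on the plus strand, and Aldh1a7 at 20692953 to 20727562 on the minus strand. The 2 coding sequences are both 1503 bases long and match at 1377 positions (91.6%), with a longest identical stretch of 100 bases. Of the stretches of 31 bases (31-mers, the unit in which kallisto matches reads) in transcript Aldh1a1-201, 13.9% also occur in Aldh1a7-201, and 13.8% in the opposite direction. The 60-base window of the coding sequence with the most differences is shown here, bases 317 to 376 counted from the start codon, with the 16 differing bases in capitals, because reads from such windows can tell the pair apart.
Aldh1a1-201: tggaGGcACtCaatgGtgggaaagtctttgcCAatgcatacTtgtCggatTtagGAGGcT
Aldh1a7-201: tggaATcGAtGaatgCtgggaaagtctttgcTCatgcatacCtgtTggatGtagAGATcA

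The similarity extends upstream of both genes. The 250 bases before 1 start site of each gene, from RefSeq on GRCm38.p6, are shown because the 2 genes changed together. For Aldh1a1 the listed start site with the highest coordinate was taken, while the gene as annotated begins upstream of it, at 20492715. Capitals mark the longest stretch that both share, 65 bases, and from its first base to the start site 91 of 94 bases are identical. Over the whole 250 bases an alignment had 68.7% identical columns.
Aldh1a1, chr19:20601718-20601967, plus strand: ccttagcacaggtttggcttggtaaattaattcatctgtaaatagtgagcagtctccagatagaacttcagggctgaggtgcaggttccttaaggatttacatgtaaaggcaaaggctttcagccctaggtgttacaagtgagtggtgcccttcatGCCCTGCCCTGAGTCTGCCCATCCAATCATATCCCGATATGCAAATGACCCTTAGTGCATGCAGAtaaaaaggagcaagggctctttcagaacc
Aldh1a7, chr19:20727557-20727806, minus strand: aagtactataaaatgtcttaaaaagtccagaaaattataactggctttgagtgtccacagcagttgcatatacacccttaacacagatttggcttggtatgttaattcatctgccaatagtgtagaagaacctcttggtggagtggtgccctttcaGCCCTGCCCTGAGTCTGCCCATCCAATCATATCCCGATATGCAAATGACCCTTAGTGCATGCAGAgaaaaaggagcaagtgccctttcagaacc
The core letters bound by many homeobox factors, TAATTA, were searched on both strands of the 10 listed promoters of 7 of the 9 genes, 300 bases each, and none held them. Of all 32851 promoters in the same table, 5.29% did. A match or its absence describes only these letters in this window.

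Set side by side as TPM, the genes of the group spanned several orders of magnitude, and their order differed between transduced and transfected cells. With doxycycline, Aldh1a1 was the highest of the 9 at 529.1 ± 30.3 TPM (SD, n = 3), followed by Dhrs3 (197.7), Aldh1a7 (191.1) and Crabp1 (140.4). Without doxycycline, Dhrs3 led at 192.3 TPM, ahead of Aldh1a1 at 95.4 ± 12.2, Crabp1 at 69.1 and Aldh1a7 at 24.4. In each of the 8 transfected groups Crabp1 led, at 502.7 to 812.4 TPM, with Dhrs3 next at 37.5 to 55.5 TPM. Aldh1a1 and Aldh1a7 were there between 1.28 and 5.67 TPM.

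**Figure D1:**
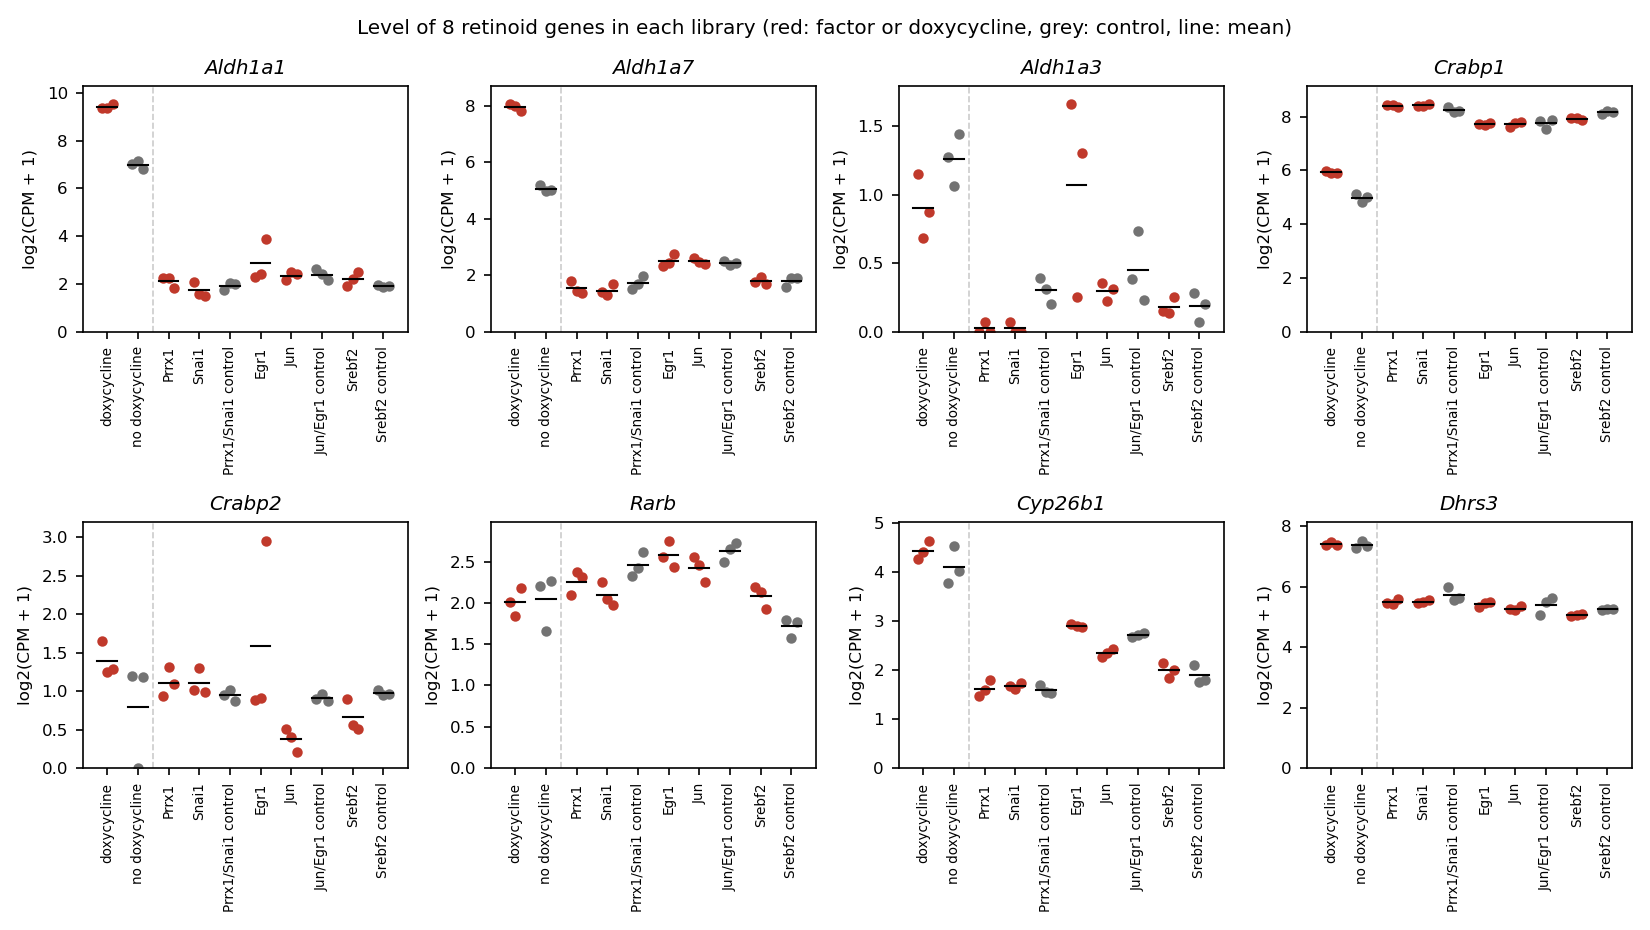
Each panel plots log2(CPM + 1) of 1 gene in 30 libraries (points, with the mean of 3 as a line) for the transduced groups, left of the dashed line, and the 8 transfected groups. Aldh1a1 and Aldh1a7 were highest with doxycycline and low in all transfected groups, while Crabp1 was higher in every transfected library than in the transduced ones.

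Aldh1a1, which makes retinoic acid from retinaldehyde, read 659.8, 656 and 735.3 CPM in the 3 doxycycline libraries. Without doxycycline it read 127.7, 138.6 and 110.6 CPM. The fitted change was 5.37-fold (log2 fold change 2.43 ± 0.104, SE, 95% interval 2.20 to 2.65). Aldh1a7, its rodent copy, read 265.1, 255.1 and 224.8 CPM with doxycycline and 35.5, 30.8 and 31.3 CPM without. Its change was 7.47-fold (2.90 ± 0.103, interval 2.68 to 3.13). Both intervals describe the fit and make no allowance for the choice of these genes by this change, so they are not a test of it. Counted together as 1 gene, so that no read has to be divided between them, the pair had a log2 fold change of 2.54. Over 14 alternative analyses the log2 fold changes ran from 2.33 to 2.48 for Aldh1a1 and 2.85 to 3 for Aldh1a7.

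Nearly all counts of Aldh1a1 belonged to 1 transcript. Aldh1a1-201 (20601961 to 20643462) held 98.5% of its counts over all libraries, 99.2% of its CPM in the transduced groups and 89.5% in the transfected groups. Aldh1a7 has a single transcript in the files. In TPM, the ratio of Aldh1a1 to Aldh1a7 was 2.51, 2.59 and 3.29 with doxycycline and 3.61, 4.58 and 3.57 without. The ranges of the ratio did not overlap, and the mean ratio was 2.79 ± 0.432 with doxycycline and 3.92 ± 0.57 without. In the 24 transfected libraries the ratio ran from 0.8 to 2.4 with a median of 1.19, mostly at levels of a few TPM. The part of reads matching both genes in these ratios was not tested.

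**Figure D2:**
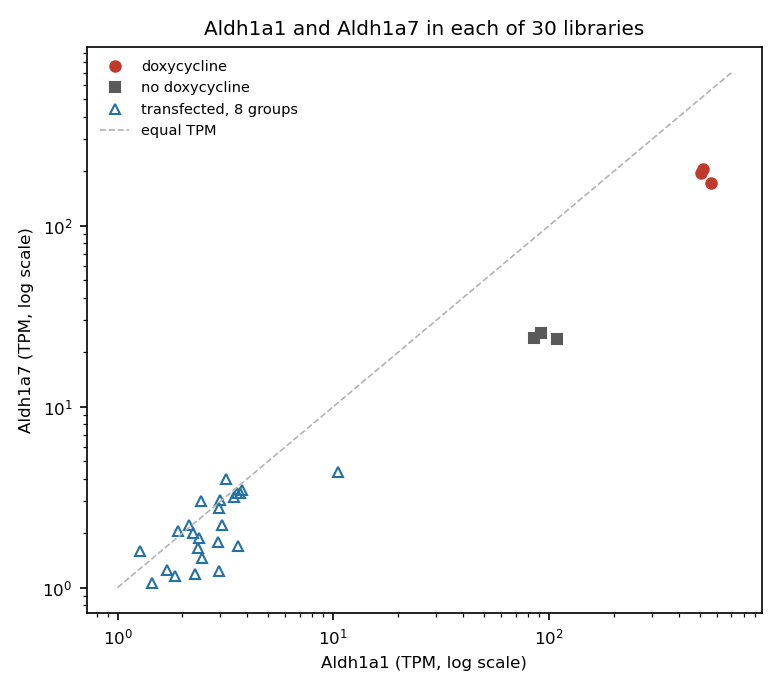
Each point is 1 library, with Aldh1a1 on the horizontal and Aldh1a7 on the vertical axis in TPM, both on log scales, and the dashed line marks equal TPM. The doxycycline and no-doxycycline libraries form 2 separate groups above the 24 transfected libraries, and both lie on the Aldh1a1 side of the line.

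Raising Prrx1 by transfection did not give this pattern. Aldh1a1 read 3.73, 3.80 and 2.58 CPM with the Prrx1 plasmid and 2.29, 3.05 and 2.97 CPM with the control plasmid, overlapping ranges with a log2 fold change of 0.28 ± 0.243 (95% interval −0.25 to 0.80). Aldh1a7 read 2.43, 1.68 and 1.60 against 1.82, 2.18 and 2.92 CPM (−0.28 ± 0.272, interval −0.87 to 0.30). The difference between the 2 Prrx1 effects, induction minus transfection, was 2.14 ± 0.208 on the log2 scale for Aldh1a1, 3.19 ± 0.243 for Aldh1a7 and 0.76 ± 0.141 for Crabp1. Of all 15216 genes in that fit, 4% were called in either direction and 1.98% as higher, against these 3 of 8. Because the genes were chosen with these changes known, nothing is read from that count. The induction effect also holds any effect of doxycycline itself, which cannot be told apart from that of Prrx1.

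The starting levels of the 2 experiments were also far apart. Without doxycycline, all 3 libraries lay above all 24 transfected libraries for Aldh1a1 (median 127.7 against 3.42 CPM, a ratio of 37.4) and for Aldh1a7 (31.3 against 2.75 CPM, 11.4). The same held for Cyp26b1 (15.1 against 2.77 CPM, 5.44) and Dhrs3 (164 against 42.5 CPM, 3.86). Crabp1 was on the other side, 8.29 times higher in the median transfected library (262.4 against 31.7 CPM). Markers of other cell types also differed between the experiments, in both directions. The 5 endothelial markers summed to 18.2 to 26.9 CPM in the transduced and 2.92 to 6.14 CPM in the transfected libraries, with 0 to 2 of them at 0 in both. The 6 adipocyte markers summed to 28.7 to 40.4 against 6.18 to 17 CPM, with Adipoq at 0 in all 6 transduced libraries and Lpl between 27.3 and 36.5 CPM there. The 6 neural markers went the other way, at 3.79 to 5.64 CPM in the transduced and 9.67 to 97.9 CPM in the transfected libraries. Sums of immune markers overlapped. Epithelial sums were 0.24 to 1.27 CPM in the transduced libraries and overlapped only with the Srebf2 experiment, at 0.40 to 0.92 CPM. Every other transfected library lay higher, at 2.08 CPM or more. The part of all these markers in the level differences was not tested. The ratios carry no test, because experiment and delivery cannot be told apart. In bulk RNA, fewer cells expressing a gene and less RNA per cell cannot be told apart either.

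Among the transfected groups, the order of Aldh1a1 was Egr1 (7.28 ± 5.54 CPM), the controls of Egr1 and Jun (4.27 ± 0.828), Jun (4.11 ± 0.616), Srebf2 (3.66 ± 0.905), Prrx1 (3.37 ± 0.688), the controls of Prrx1 and Snai1 (2.77 ± 0.416), the Srebf2 controls (2.76 ± 0.12) and Snai1 (2.35 ± 0.753). No neighbours in this order differed by more than their spread. Neither dehydrogenase was called in any transfection. For Aldh1a7, the log2 fold changes were −0.38 ± 0.274 with Snai1, 0.11 ± 0.174 with Egr1, 0.10 ± 0.174 with Jun and 0.02 ± 0.234 with Srebf2. Without Egr1 replicate 3 the Egr1 value was −0.05, and without replicate 2 of the controls the Egr1 and Jun values were both 0.05. For Aldh1a1 they were −0.23 ± 0.252, 0.76 ± 0.481, −0.03 ± 0.485 and 0.43 ± 0.216 in the same order.

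Aldh1a2 (chromosome 9, 71215789 to 71296243), the main retinoic acid source of the early embryo, was nearly absent. All 6 transduced libraries held 0 counts. As a rough limit of detection, 3 counts over the 3 libraries of a group would be 0.0978 CPM with doxycycline and 0.0823 CPM without. Of the 24 transfected libraries, 20 held 0 counts. The others were Prrx1 replicates 1 and 2 with 2 and 1 counts, Egr1 replicate 1 with 1, and replicate 2 of the controls of Egr1 and Jun with 3, the library with the high neural markers. It entered no test.

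Aldh1a3 (chromosome 7, 66390890 to 66427517) was low everywhere. It read 1.23, 0.604 and 0.832 CPM with doxycycline and 1.42, 1.09 and 1.73 CPM without (−0.72 ± 0.538), so the groups overlapped. With Egr1 it read 2.17, 0.191 and 1.48 CPM against 0.306, 0.661 and 0.175 CPM in the controls (1.77 ± 0.741, not called, and 2.39 without replicate 2 of these controls), so replicates 1 and 3 stood above the controls and replicate 2 within them. Without Egr1 replicate 3 the change of Aldh1a3 with Egr1 was 1.66. With Jun its change was −0.69, not called, and −0.07 without replicate 2 of the controls. After Prrx1 and Snai1 transfection 1 count was found in 3 libraries each, against 6, 5 and 3 counts in their controls, too few for a test.
These low counts were assigned to different transcripts. Aldh1a3-203 held 94.6% of the gene's CPM in the transduced groups and 32.7% in the transfected groups. Of its 31-mers 93% are found in no other gene, against 100% for every other Aldh1a3 transcript. The gene shares 31-mers with 841 other genes, so its transduced level rests mainly on the transcript that holds this sharing. The part of reads from those genes was not tested. The full-length Aldh1a3-201 held 3.96% and 40.4%, and the retained-intron transcript Aldh1a3-202 held 1.42% and 24.8%.

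Crabp1 (chromosome 9, 54764748 to 54773110), a cytosolic retinoic acid binding protein with a single transcript in the files, was the third of these genes to rise with doxycycline. It read 61.7, 59.2 and 58.5 CPM with doxycycline and 34.0, 27.0 and 31.7 CPM without, which is 1.9-fold (log2 fold change 0.92 ± 0.119). The groups did not overlap, and 14 alternatives gave values of 0.83 to 1.03. With Srebf2 it was called lower. The values were 247.8, 244.7 and 235.6 CPM against 277, 293.3 and 291.8 CPM in the controls (−0.22 ± 0.0491), a small change with no overlap. That call was absent in the fit on all 30 libraries and held in the other 13 alternatives.
With Prrx1 and Snai1 the changes in Crabp1 were 0.15 ± 0.0673 and 0.18 ± 0.0673, neither of them called. Without replicate 1 of their shared controls, which read 330.2 CPM against 288.4 and 292.3 CPM, Crabp1 was called higher in both, at 0.23 with Prrx1 and 0.25 with Snai1. With Egr1 and Jun the changes were −0.02 ± 0.0897 and 0.00 ± 0.0899 (−0.13 and −0.11 without replicate 2 of their controls), on levels of 186.1 to 233.9 CPM.

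Crabp2 (chromosome 3, 87948666 to 87953376), which hands retinoic acid to nuclear receptors, was low, at most 2.14 CPM in every library but 1. Egr1 replicate 3 read 6.75 CPM, against 0.854 and 0.872 CPM in the other Egr1 libraries and 0.858, 0.954 and 0.829 CPM in their controls. The log2 fold change with Egr1 was 1.68 ± 0.765 with that library and −0.02 without it, and was not called in either case. With Jun it read 0.427, 0.323 and 0.16 CPM, all below the controls (−1.48 ± 0.817, not called, and −1.43 without replicate 2 of these controls). With Srebf2 all 3 libraries were also below their controls (−0.71 ± 0.379, not called), at 0.867, 0.477 and 0.424 against 1.02, 0.937 and 0.947 CPM. With doxycycline it read 2.14, 1.37 and 1.44 CPM against 1.29, 0 and 1.27 CPM, all higher (0.81 ± 0.754, not called).

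Rarb, the beta receptor for retinoic acid, carries in its promoter a well-known direct repeat that retinoic acid receptors bind, and it is shown here because the gene is a common readout of retinoic acid. RefSeq gives chr14:16575507-16575535, minus strand (GRCm38.p6), with both copies of the repeated motif in capitals, the first starting 53 bases before the start site.
Rarb promoter: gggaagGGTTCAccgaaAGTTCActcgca
Direct repeats spaced by 5 bases, made of the motif AGTTCA, its variant with the letters AGGTCA, or the variant with the letters GGTTCA, occur in 0.0609% of the 32851 promoters on either strand. The variant GGTTCA was added to the search after this sequence was seen. Without it the share was 0.0396%, and Rarb was not among the matches.

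Rarb (chromosome 14, 16430839 to 16819156, minus strand) was low and was called in no comparison. It read 3.02, 2.58 and 3.53 CPM with doxycycline and 3.61, 2.16 and 3.80 CPM without (−0.10 ± 0.36), so the groups with high and low Aldh1a1 did not separate on it. With Srebf2 it read 3.59, 3.38 and 2.80 CPM against 2.48, 1.98 and 2.41 CPM, all higher (0.53 ± 0.218, not called), and limma on TPM called it higher (0.75 and 1.05, by pseudocount). With Snai1 it read 3.78, 3.12 and 2.93 CPM against 4.03, 4.35 and 5.11 CPM, all lower (−0.45 ± 0.174, not called).
These values are uncertain, since only 67.9% of the 31-mers of Rarb are found in no other gene. The rest occur in Top2b (chromosome 14, 16365179 to 16435462, plus strand), which overlaps its end on the opposite strand, and the library strand is not given in the sources used here. The most abundant transcript, Rarb-201 with 66.6% of the counts, shares 55.6% of its 31-mers with Top2b, against 13% for Rarb-202, annotated as a target of nonsense-mediated decay. Rarb-201 held 34.9% of the gene's CPM in the transduced groups and 68.6% in the transfected groups, and Rarb-202 50.7% and 16.2%. Between the Srebf2 groups, Rarb-201 was at 1.89 ± 0.534 against 1.79 ± 0.564 CPM. Rarb-202 read 0.808, 0.975 and 0.916 CPM with Srebf2 and 0.314, 0.261 and 0.163 CPM in the controls, from 14.9 to 20.4 estimated counts against 3.28 to 5.86.

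Cyp26b1 (chromosome 6, 84571414 to 84593908), which inactivates retinoic acid, read 18.1, 20.3 and 23.9 CPM with doxycycline and 12.8, 22.1 and 15.1 CPM without (0.32 ± 0.199, not called), so 1 control library lay within the doxycycline range. Its highest transfected levels were in the experiment with Egr1 and Jun. There it read 6.66, 6.40 and 6.31 CPM with Egr1, 5.35, 5.58 and 5.71 CPM in the controls, and 3.78, 4.10 and 4.35 CPM with Jun. All Egr1 libraries were above (0.23 ± 0.128) and all Jun libraries below the controls (−0.42 ± 0.13), and neither was called. Without replicate 2 of these controls, the library with the high neural markers, the changes were 0.22 and −0.43. Transcripts Cyp26b1-204 and Cyp26b1-205 held 56.7% and 39.8% of its counts.

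Dhrs3 (chromosome 4, 144892827 to 144928209), which turns retinaldehyde back into retinol, did not separate the doxycycline groups. It read 165.6, 178.7 and 168 CPM with doxycycline and 154.1, 183.5 and 164 CPM without (0.01 ± 0.0799, 95% interval −0.16 to 0.19). With Snai1 all libraries were below the controls (42.7, 44.7 and 45.8 against 63.2, 46.7 and 48.4 CPM, −0.24 ± 0.108). With Srebf2 they were too (32, 32.6 and 33.3 against 36.3, 37.5 and 37.9 CPM, −0.17 ± 0.0666), and neither change was called.
Its counts were spread over several transcripts, with 49.4% in Dhrs3-207, 25.8% in Dhrs3-201 and 13.8% in Dhrs3-206. The shorter Dhrs3-202 held 21% of the gene's CPM in the transduced groups and 2.8% in the transfected groups.

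Over the whole group of genes, 3 of 8 tested rose with doxycycline and 0 fell. Of all 13632 tested genes, 6.19% were called in either direction and 3.46% were called higher. The median log2 fold change of the 8 was 0.57, against −0.01 over all tested genes. Aldh1a1, Aldh1a7, Crabp1 and Crabp2, 4 of the 8, did not overlap between groups, as did 25.1% of all tested genes. Since the genes were chosen with these values known, the counts describe the choice. In the transfections, edgeR called 0 of 7 with Prrx1 (2.98% of all genes), 0 of 7 with Snai1 (1.62%), 0 of 8 with Egr1 (0.325%) and 0 of 8 with Jun (0.967%), and DESeq2 also called 0 in each. With an unadjusted threshold of 0.05, the counts were 2, 3, 1 and 1 in the same order, where 17.2%, 16.3%, 10.3% and 15.3% of all tested genes passed it. With Srebf2, 1 of 7 was called lower, where 17.2% of all genes were called in either direction and 8.84% lower. Groups did not overlap for 0 of 7 with Prrx1 (19.7% of all tested genes), 3 of 7 with Snai1 (21%), 1 of 8 with Egr1 (16.3%), 2 of 8 with Jun (23.3%) and 4 of 7 with Srebf2 (35.3%). The comparisons with Prrx1 and Snai1 share their controls, as do those with Egr1 and Jun.

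**Figure D3:**
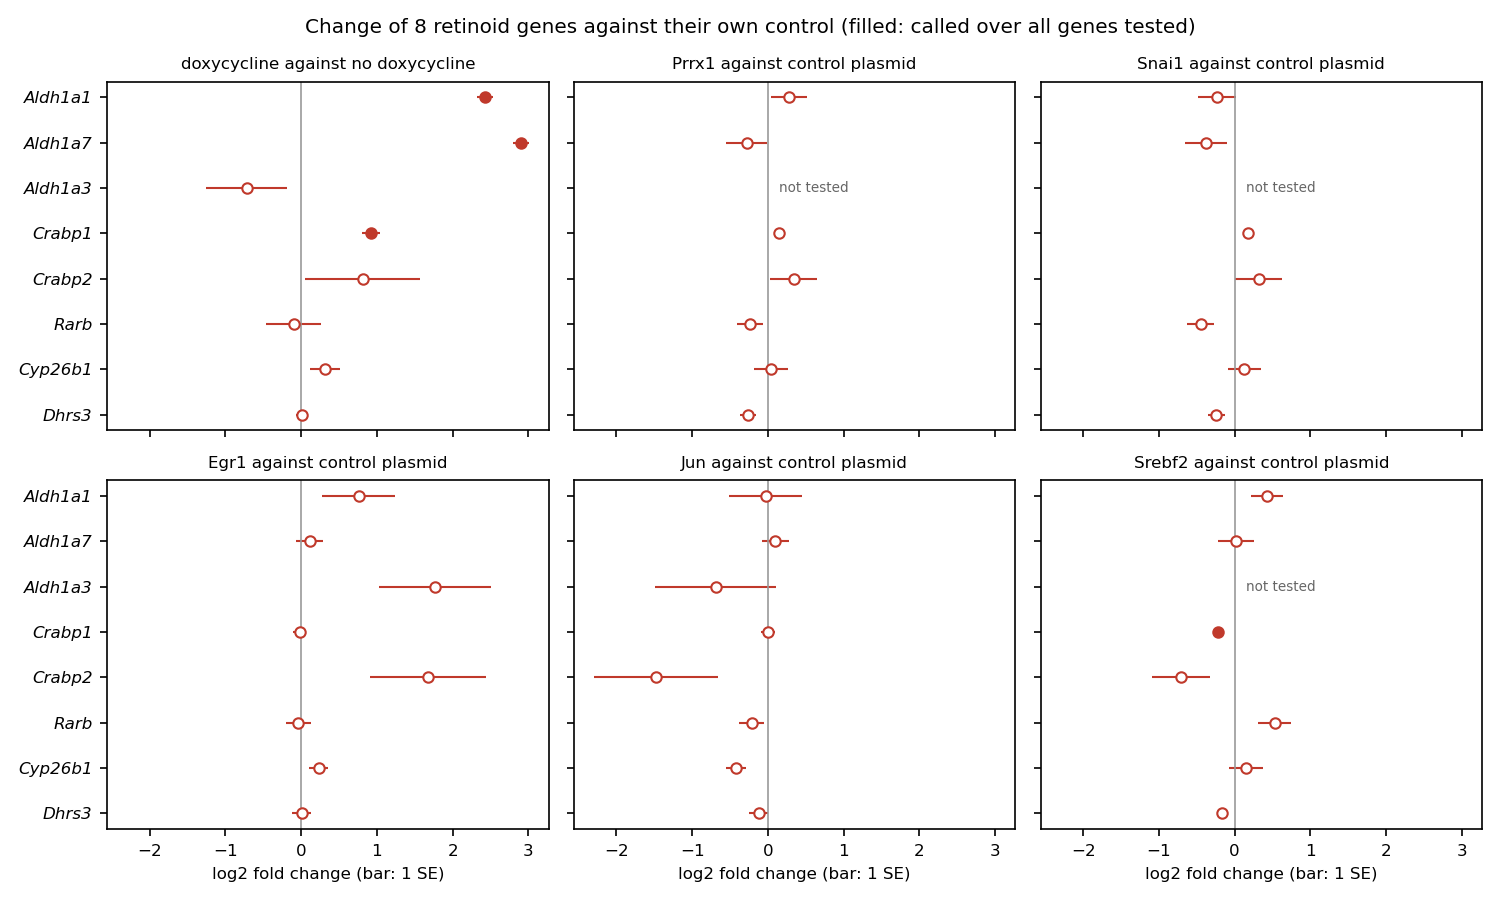
Each panel shows log2 fold changes (points, bars of 1 SE) of 8 genes in 1 comparison, with filled points for genes called over all genes tested. Aldh1a1, Aldh1a7 and Crabp1 are filled with doxycycline and Crabp1 with Srebf2, and all other points are open.

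Beyond these 9, a list of 59 other genes, called other retinoid genes here, was followed, with edgeR p-values adjusted over all genes tested. It includes 15 other aldehyde dehydrogenases, listed by family, so counts for the list are not of retinoid genes alone. Of these 15, 14 were tested with doxycycline, and 1 rose and 0 fell. With doxycycline, 4 of 42 tested rose, 2 fell and 36 did not pass, with a median log2 fold change of 0.03. Among all tested genes 6.19% were called in either direction. Of 12 tested genes that interconvert retinol and retinaldehyde, 2 rose, 0 fell and 10 did not pass. Rdh10, the main retinol dehydrogenase of the embryo, read 12.5, 11.6 and 10.4 CPM with doxycycline and 7.52, 4.14 and 5.46 CPM without (0.95 ± 0.249, adjusted p = 0.046). Dhrs9, another dehydrogenase reported to act on retinol, read 120.2, 115.4 and 126.7 against 63.7, 69.8 and 83.5 CPM (0.72 ± 0.102, adjusted p = 0.00132). No library overlapped between the groups for either gene.

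Fabp5, a fatty acid binding protein that can also carry retinoic acid, rose from 90.5 ± 8.02 to 135.9 ± 6.73 CPM (0.57 ± 0.0914, adjusted p = 0.00333). Aldh6a1, a mitochondrial dehydrogenase of valine breakdown and not of retinoids, rose from 32.8 ± 6.49 to 48.9 ± 3.46 CPM (0.56 ± 0.14, adjusted p = 0.0375). The calls of Dhrs9 and Fabp5 held in 6 of 6 analyses that left out 1 library, and both were lost in limma on TPM at either pseudocount. Those of Rdh10 and Aldh6a1 held in 2 of 6. Both were lost without any 1 of the doxycycline libraries, Rdh10 also without replicate 3 and Aldh6a1 without replicate 1 of the libraries lacking doxycycline.
Both fallen genes are reported to respond to retinoic acid. Tgm2, a transglutaminase, read 44.8, 38.6 and 37.4 CPM against 92.7, 99.8 and 76.8 CPM (−1.18 ± 0.119, adjusted p = 0.00012). Nr2f1, an orphan nuclear receptor, read 14.2, 13.1 and 12.3 CPM against 29.8, 41.3 and 30.1 CPM (−1.37 ± 0.152, adjusted p = 0.000254). Among the 8 tested genes of the reported retinoic acid responsive list these 2 fell, none rose and 6 did not pass.
Neither the receptors Rara (−0.09 ± 0.0951), Rarg (0.17 ± 0.0888), Rxra (0.12 ± 0.114) and Rxrb (−0.21 ± 0.116) nor the uptake receptor Stra6 (0.69 ± 0.368) and Aldh2 (0.33 ± 0.127) passed.

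**Figure D4:**
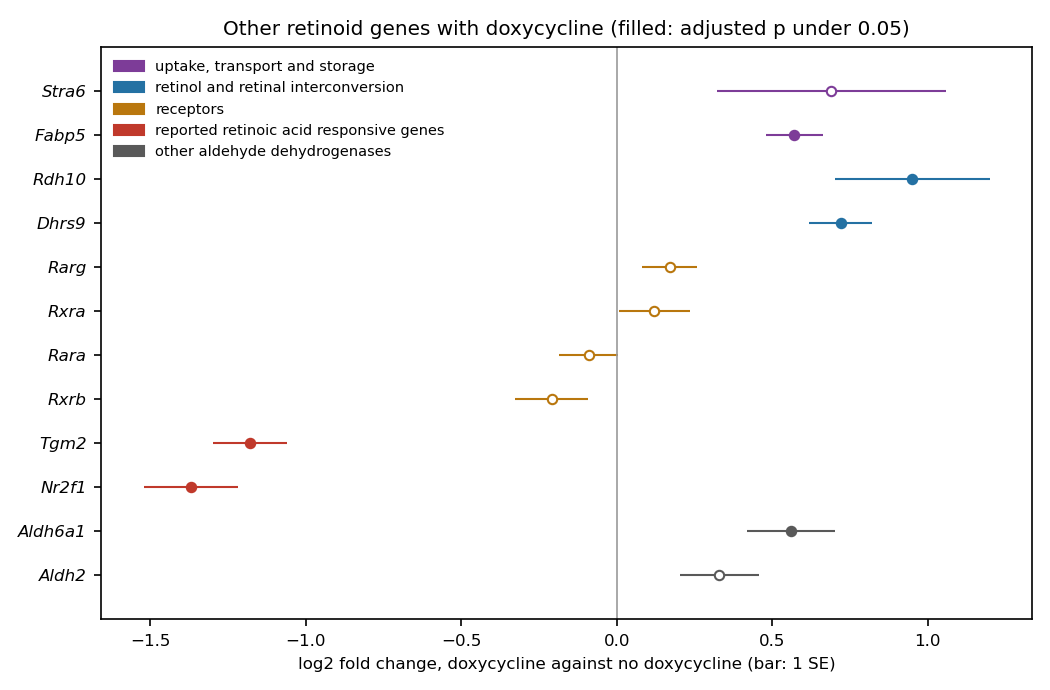
Points are log2 fold changes with doxycycline of the 12 genes of the list named in the text for this comparison (bars of 1 SE), coloured by role and filled where the adjusted p was under 0.05. The 4 filled points on the right are Fabp5, Rdh10, Dhrs9 and Aldh6a1, and the 2 on the left Tgm2 and Nr2f1.

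After Prrx1 transfection, 1 of 41 tested genes of this list rose, Fabp5, from 39.9 ± 4.19 to 53.9 ± 5.37 CPM (0.43 ± 0.0949, adjusted p = 0.0285 by edgeR, higher in 3 of 3 libraries). Among all tested genes 2.98% were called in either direction. The count for the list was 0 without Prrx1 replicate 1 or 2, control replicate 2 or 3, or Snai1 replicate 1 or 3. It was 9 without control replicate 1, where the share of all genes called was not counted. The difference between the Prrx1 effects was called for Dhrs9 (0.94 ± 0.181, adjusted p = 0.00705), Tgm2 (−1.06 ± 0.178, adjusted p = 0.00223) and Nr2f1 (−1.32 ± 0.165, adjusted p = 0.000145), but not for Rdh10 (0.74 ± 0.224, adjusted p = 0.0815). These 3 made up the called genes among 42 tested, where 4% of all tested genes were called. From the list, 5 were called without replicate 1 of the no-doxycycline libraries or of the plasmid controls, where the share of all genes was not counted either. Levels again differed between experiments. Rdh10 was at 60.1 ± 3.32 CPM in the controls of Prrx1 and Snai1 against 5.71 ± 1.70 CPM without doxycycline, and Tgm2 at 13.0 ± 1.64 against 89.8 ± 11.8 CPM.

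With Snai1, 0 of 41 tested genes of the list passed by edgeR, with 6 under an unadjusted threshold of 0.05, 1 by DESeq2, and 12 without replicate 1 of the shared controls. The share of all genes called was counted for the main edgeR fits only, not by DESeq2 or with a library left out. With Egr1 it was 0 of 46 genes of the list, with 3 under the unadjusted threshold and 2 by DESeq2, and with Jun 0 of 46, with 12 and 4. Among all tested genes edgeR called 1.62% with Snai1, 0.325% with Egr1 and 0.967% with Jun. The unadjusted threshold was passed by 16.3%, 10.3% and 15.3% in the same order. Without Egr1 replicate 3 the counts were 1 for Egr1 and 3 for Jun. Without Jun replicate 2 the count for Egr1 was 1, and without replicate 1 of their controls that for Jun was 1.
With Srebf2, 4 of 41 rose, 4 fell and 33 did not pass. Lower were the receptors Rarg (−0.20 ± 0.0506, adjusted p = 0.0132) and Rxrb (−0.33 ± 0.0655, adjusted p = 0.00243) and the dehydrogenases Aldh2 (−0.28 ± 0.0543, adjusted p = 0.00207) and Aldh16a1 (−0.39 ± 0.0712, adjusted p = 0.00157). Among the higher were the alcohol dehydrogenase Adh7 (0.40 ± 0.111, adjusted p = 0.0207) and the reported retinoic acid responsive genes Meis2 (0.22 ± 0.0701, adjusted p = 0.0393) and the corepressor Nrip1 (0.31 ± 0.0994, adjusted p = 0.0384). The share called in the list, 8 of 41, lies near that of all genes in this comparison, 17.2%. Nrip1 and Aldh2 changed sign in limma on TPM, to −0.04 and 0.03. Without Srebf2 control replicate 2 the count fell to 3, and without control replicate 3 or Srebf2 replicate 2 or 3 it was 5. With 1 library left out, Rxrb, Aldh2 and Aldh16a1 kept their calls in 6 of 6 analyses, Rarg in 4, Adh7 in 3, Nrip1 in 2 and Meis2 in 0.

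Egr1 replicate 3 set several of the values above. In that library Aldh1a1 read 13.7 CPM, against 3.90 and 4.26 CPM in the other Egr1 libraries and 5.06, 4.35 and 3.41 CPM in the controls, and Crabp2 was high as well. Its 6 epithelial markers summed to 163.4 CPM, with 17.75 and 9.56 CPM in the other Egr1 libraries and 9.37 to 12.6 CPM in the controls, and none of the 6 was at 0 in any of these libraries. Without Egr1 replicate 3 the log2 fold change of Aldh1a1 was −0.06. Aldh1a3 was high in Egr1 replicates 1 (2.17 CPM) and 3 (1.48 CPM), the libraries with the highest epithelial sums of the 9 in that experiment. The part of these markers in the values was not tested.

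**Figure D5:**
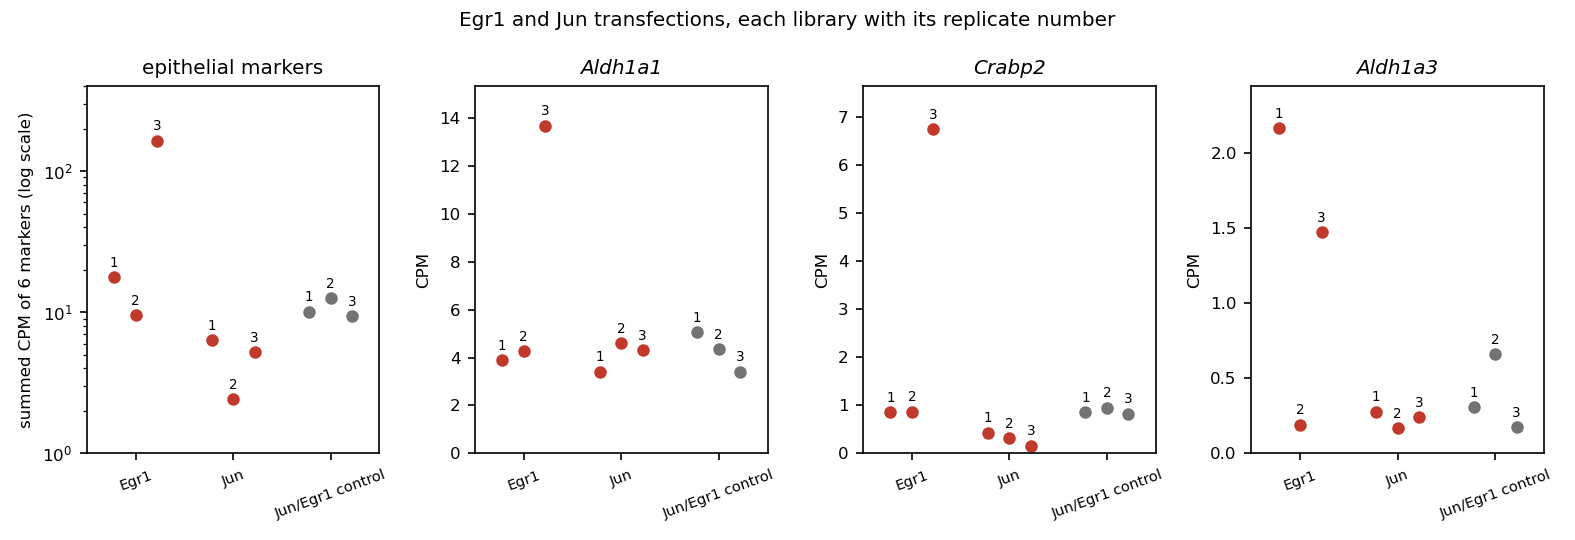
Points are single libraries numbered by replicate, with the summed CPM of 6 epithelial markers on a log scale in the first panel and the CPM of Aldh1a1, Crabp2 and Aldh1a3 on linear scales in the others. Egr1 replicate 3 stands above the other 8 libraries for the markers (163.4 CPM), Aldh1a1 and Crabp2.

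Across the 10 group means of log2(CPM + 1), Aldh1a1 and Aldh1a7 ran together (Pearson r = 0.99), and Aldh1a1 ran against Crabp1 (r = −0.90). Of 10632 protein-coding genes compared, those most like Aldh1a1 were Pgrmc1, Pde6h and Rad17 (r of 0.995 to 0.996), and those most like Aldh1a7 were Chfr, Samd5 and Hacd4 (0.993 to 0.994). For Crabp1 they were Nxph3, Scap and Slc16a13 (0.995 each), for Cyp26b1 Itpr2, Arhgap12 and Phka1 (0.99 to 0.992), and for Dhrs3 Pecam1, Actr3 and Pfkfb3 (0.992 to 0.993). The likeness was weaker for Aldh1a3 (Epn3, Hist1h2bc and Chic1, 0.914 to 0.961), Rarb (Bzw1, Pbdc1 and Snrpb2, 0.931 to 0.95) and Crabp2 (Hnrnpr, Stat6 and Trmt13, 0.733 to 0.775). These values describe 10 points of which 2 are transduced and 8 transfected groups, so any gene that differs between the experiments scores high.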

How the data were processed

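Each of the 30 deposited tables holds estimated counts and TPM per transcript, which the authors made with kallisto 0.43.0. The submitters' processing notes name that tool and the mouse build mm10. Strand, read layout and annotation release are not given in the sources used here. Of 118491 targets, 116816 matched GENCODE M21 including version. The 1673 unmatched targets held 0.605 to 0.694% of counts and were left out, as were the 2 fluorescent reporters listed (GFP and mScarlet). The deposited estimated counts were summed over the transcripts of each of 36047 genes and rounded, and the deposited TPM were summed per gene. No 2 libraries held identical counts (highest r 0.9919).

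For each change, edgeR 4.0.16 (R 4.3.3) fitted robust quasi-likelihood models after TMM scaling and filterByExpr at a minimum count of 10 and total of 15. P-values were Benjamini-Hochberg adjusted over all tested genes and called under 0.05, two-sided. Groups sharing controls were fitted together, without a replicate term, and tested on simulated data first. The prior count was 0.125, the SE was the log2 fold change over the root of its F statistic, and intervals are at 95%. Alternatives were no filter, at least 5 CPM in 3 libraries, RLE size factors, DESeq2 1.42.0, limma 3.58.1 on log2(TPM + 1) or log2(TPM + 0.1) where the mean TPM reached 1 or more, 1 fit on all 30 libraries, a replicate block, the summed Aldh1a1 and Aldh1a7, and leaving out each library.

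The 9 genes and all lists were chosen with earlier results of these data known. The text names the 9 genes, their transcripts with at least 10% of counts, called genes of the list of 59 and a fixed set of receptors and carriers (some of them are not reported here), and the 3 most alike genes of each, at least 5 CPM in the highest group. Dhrs3-202, below that share, was singled out after its values were seen. Promoters came from the RefSeq table and were aligned with edlib 1.3.9.post1. The receptor motif AGTTCA (in 14% of promoters), its variant with the letters AGGTCA (16.3%), their direct repeats, the homeobox core and TATAAA (13.6%) were searched on both strands. The last was found in promoters of Aldh1a7 and Cyp26b1.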

Additional observations from a re-analysis of the deposited data

Results flagged for a closer look

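The change with doxycycline in cells transduced with Prrx1 and the change with Prrx1 transfection differed for 3 genes of the list of other retinoid genes. The difference itself was tested (edgeR, 12 libraries, adjusted over all 15216 tested genes). The log2 difference, induction minus transfection, was 0.94 for Dhrs9, −1.06 for Tgm2 and −1.32 for Nr2f1. The same difference was 2.14 for Aldh1a1, 3.19 for Aldh1a7 and 0.76 for Crabp1, given as a description because these 3 were chosen with such values known. The 2 changes come from separate experiments whose control levels of these genes also differed, and the part of that difference in the result was not tested. Only the first involved doxycycline, whose own effect cannot be told apart from that of Prrx1.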

How the results depend on the processing

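With doxycycline and in the difference between Prrx1 effects, 3 of the 9 genes (Aldh1a1, Aldh1a7 and Crabp1) were called in every alternative run, which carries no weight of its own because they were chosen with these changes known. For the 9 genes, the counts that moved were those with Prrx1 and with Snai1, 0 to 1 over left-out libraries, and with Srebf2, 2 by limma on TPM at both pseudocounts and 0 in the fit on all 30 libraries. For the list of other retinoid genes the count with doxycycline (6) was 2 by limma on TPM at both pseudocounts and 13 on all 30 libraries. With Prrx1 (1) it was 2 by limma at both pseudocounts and 0 to 9 over left-out libraries. With Snai1 (0) it was 1 without a filter, by DESeq2 and on all 30 libraries, and 0 to 12 over left-out libraries. With Egr1 (0) it was 2 by DESeq2, 5 by limma at both pseudocounts, 1 on all 30 libraries and 0 to 1 over left-out libraries. With Jun (0) it was 3 at 5 CPM, 4 by DESeq2, 7 and 8 by limma and 0 to 3 over left-out libraries. With Srebf2 (8) it was 5 by DESeq2, 2 by limma at both pseudocounts, 2 on all 30 libraries and 3 to 7 over left-out libraries. In the difference between Prrx1 effects (3) it was 6 without a filter, 7 on all 30 libraries and 3 to 5 over left-out libraries. Limma reversed Nrip1 (−0.04) and Aldh2 (0.03) with Srebf2, at both pseudocounts. The cause was not tested. The share of all tested genes called was counted for the main fits only. A count under another setting therefore cannot be set against that share, and nothing about these genes in particular is read from it.

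Replicate numbers gave little sign of pairing. Between same-numbered libraries, correlations of each gene's deviations from its group mean ran from −0.18 to 0.11. Of the 6 libraries in each comparison, 4 with doxycycline and 3 with Prrx1 or with Snai1 matched best with their own number. With Egr1 or with Jun 0 did, and with Srebf2 1 did. With a replicate block, the list counts were 7 with doxycycline, 1 with Prrx1, 8 with Srebf2 and 4 in the difference, and the counts of the 9 genes stayed at 3, 0, 1 and 3. Precision is limited for Aldh1a2, Aldh1a3, Crabp2 and Rarb, which rest on few counts. In the transfections the same holds for Aldh1a1, Aldh1a7 and Cyp26b1. With Prrx1 their SEs were 0.243, 0.272 and 0.222, against 0.172 for Rarb.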
